A study of Mus musculus with 26 samples.

Results

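The genes described are 9 members of the mouse Nlrp family that are transcribed mainly in oocytes: Nlrp4a, Nlrp4b, Nlrp4c, Nlrp4e, Nlrp4f, Nlrp9a, Nlrp9b, Nlrp9c and Nlrp14. They were chosen by symbol, and all 9 are present among the 24412 gene symbols of each of the 3 deposited tables. Their levels were followed through 26 polyA RNA-seq libraries that form 13 groups of 2. Each library was made from a pool of oocytes or embryos, of between 12 and 20 where the labels give a number for embryos.

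The mice were C57BL/6J. Oocytes deficient in the histone H3K9 demethylases KDM3A and KDM3B came from Zp3-Cre; Kdm3a f/f; Kdm3b f/f females, in which Cre is driven by the promoter of a zona pellucida gene and acts in growing oocytes. Eggs of these females were fertilised in vitro by sperm of wild-type males, so that the embryos lacked the maternal gene products but received an intact paternal copy. Such oocytes and embryos are called mDKO. No source used here states the genotype of the females behind the groups labelled control, or the age of any female. Without injection, control and mDKO groups were profiled as MII oocytes, as early 2-cell embryos (E2C) and as late 2-cell embryos (L2C). The titles of the L2C libraries say DKO where those of the other stages say mDKO, and they were grouped as mDKO because their genotype label names the maternal deletion. The 4 injected E2C groups were control embryos given mCherry and mDKO embryos given mCherry, Kdm3aWT or Kdm3aHA. Wild-type 4-cell embryos (4C) had been injected with mCherry, Kdm3aWT or Kdm3aHA. No source used here says what HA stands for, so the construct keeps the name of its label.

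Values are TPM, a transcript abundance corrected for transcript length that shares out a fixed total in each library. Levels may therefore be compared between genes, but the sequencing depth is unknown. Fewer cells of a type and less RNA per cell cannot be told apart in such pooled samples. Per the labels, a TruSeq Stranded kit served for MII libraries, whereas SMART-Seq kits served for those of E2C and 4C embryos. Stage and library kit therefore cannot be told apart between MII and E2C, and for L2C libraries no kit is stated. Between 7649 and 12396 genes reached a TPM of 1 in a library, and replicate libraries correlated across genes at 0.968 to 0.995 on the log2 scale. In MII oocytes the targeted genes followed the labels. Kdm3a read 8.08 and 8.83 TPM in control MII oocytes and 0.725 and 0.718 TPM in mDKO MII oocytes, and Kdm3b 26.6 and 24.97 TPM against 1.75 and 1.87 TPM. At L2C the separation was smaller. Kdm3a was at 34.1 and 43.8 TPM in control and 28.4 and 26.3 TPM in mDKO embryos, which was not called (limma adjusted p = 0.0573), and Kdm3b at 3.06 and 3.70 TPM against 0.651 and 1.79 TPM was called lower (limma adjusted p = 0.0383). Kdm3a in mDKO E2C embryos reached 4122 and 2315 TPM after Kdm3aWT injection and 4043 and 3907 TPM after Kdm3aHA injection.

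NLRP proteins share a nucleotide-binding NACHT domain and a tail of leucine-rich repeats, and their best known relatives assemble inflammasomes in immune cells. A separate branch is reproductive. Its genes have been duplicated repeatedly in rodents, are transcribed while the oocyte grows, and leave a store of mRNA that the embryo degrades around genome activation. NLRP5 (MATER) belongs to the subcortical maternal complex, a cytoplasmic assembly needed for cleavage of the embryo. NLRP14 is required for development after fertilisation, and its reported partners include UHRF1, a DNA methylation cofactor, and the importin KPNA2. Nlrp4e has been tied to progress beyond the first cleavages, and NLRP9B is known from the intestine as an inflammasome sensor that works with the helicase DHX9.

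In the GENCODE annotation of GRCm38, the build that mm10 stands for, 8 of the genes lie on chromosome 7 and Nlrp4f lies on chromosome 13 (65177111 to 65205977, minus strand). Nlrp9c (26322473 to 26403700, minus strand), Nlrp4a (26435113 to 26476142, plus strand) and Nlrp9a (26535023 to 26575615, plus strand) are neighbours, with gaps of 31.4 kb and 58.9 kb between them. The remaining chromosome 7 members are dispersed: Nlrp4c at 6045161 to 6105150, Nlrp4b at 10687789 to 10730168, Nlrp9b at 19991465 to 20073306, Nlrp4e at 23301192 to 23362277 and Nlrp14 at 107166990 to 107198102, all on the plus strand. All 9 are annotated as protein coding, with 9 to 11 exons in the longest coding transcript. That transcript was 76.9% to 93.1% identical between Nlrp4 genes over 10 pairs and 82.7% to 88.0% identical between the 3 Nlrp9 genes, but 46.1% to 50.3% identical between an Nlrp4 and an Nlrp9 gene.

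Reads of such relatives can be assigned to the wrong copy. All 50-base words of the Nlrp4b and Nlrp14 transcripts were found in no transcript of another gene. Of the words of Nlrp4e, 36.7% also occurred elsewhere, chiefly in predicted genes such as Gm16443, and of those of Nlrp4c 10.7% did, chiefly in Nlrp4e. The other members shared between 2.61% and 7.79% of their words. At 100 bases, Nlrp4e shared 11.5% and Nlrp9b 2.11%, and no other member exceeded 0.844%. By this measure the level of Nlrp4e is the least certain of the 9. Next came Nlrp4c by 50-base words and Nlrp9b by 100-base words.

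RefSeq start sites gave 10 promoter windows for 8 of the genes on GRCm38.p6, each from 250 bases before to 50 bases after the start. A pair of Nlrp9 genes and a pair of Nlrp4 genes are shown, chosen because they share the longest identical run of any pair from different genes. Capitals mark that run. Nlrp9a (chr7:26534773-26535072, plus strand) and Nlrp9c (chr7:26403651-26403950, minus strand) share 106 bases, which lie upstream of both starts, and were 96.4% identical over 253 aligned bases. Nlrp4a (chr7:26435364-26435663, plus strand) and Nlrp4f (chr13:65205667-65205966, minus strand) share 26 bases, which lie downstream of this RefSeq start of Nlrp4a and upstream of that of Nlrp4f. The GENCODE genes begin further upstream, Nlrp4a at 26435113 and Nlrp4f at 65205977. By that annotation the 26 bases lie within both genes.
Nlrp9a: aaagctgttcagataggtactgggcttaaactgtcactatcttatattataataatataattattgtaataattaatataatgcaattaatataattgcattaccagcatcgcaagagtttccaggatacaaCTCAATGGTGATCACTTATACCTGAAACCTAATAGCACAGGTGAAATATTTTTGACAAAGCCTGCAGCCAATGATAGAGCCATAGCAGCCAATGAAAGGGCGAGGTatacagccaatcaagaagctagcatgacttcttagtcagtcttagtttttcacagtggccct
Nlrp9c: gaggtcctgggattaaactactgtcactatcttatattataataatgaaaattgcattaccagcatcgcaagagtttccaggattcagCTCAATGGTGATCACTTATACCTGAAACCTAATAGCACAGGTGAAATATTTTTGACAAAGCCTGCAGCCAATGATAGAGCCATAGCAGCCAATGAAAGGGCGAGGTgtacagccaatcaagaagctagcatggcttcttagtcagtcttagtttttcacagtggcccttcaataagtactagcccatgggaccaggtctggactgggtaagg
Nlrp4a: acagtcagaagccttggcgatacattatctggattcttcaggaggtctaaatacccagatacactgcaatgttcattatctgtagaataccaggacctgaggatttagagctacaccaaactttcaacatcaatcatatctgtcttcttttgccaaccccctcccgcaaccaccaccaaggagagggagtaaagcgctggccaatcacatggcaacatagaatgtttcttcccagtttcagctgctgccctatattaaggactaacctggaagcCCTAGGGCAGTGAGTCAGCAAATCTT
Nlrp4f: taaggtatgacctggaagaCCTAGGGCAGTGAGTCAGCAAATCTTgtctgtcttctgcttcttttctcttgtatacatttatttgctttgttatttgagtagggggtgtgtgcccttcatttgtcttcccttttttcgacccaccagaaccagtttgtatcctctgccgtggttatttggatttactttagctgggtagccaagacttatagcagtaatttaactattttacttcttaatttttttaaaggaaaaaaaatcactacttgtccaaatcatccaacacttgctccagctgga
An E-box (CANNTG, searched on both strands) was present in all 10 windows, where 72.3% of the 32851 promoter windows in the table hold one. The homeobox word TAATTG, which overlaps other such words, was found in the windows of Nlrp9a and Nlrp9b and in 8.0% of all windows. TAATTA was found in that of Nlrp9a alone (5.29% of all windows), and TATAAA in that of Nlrp9b alone (13.6%). The windows held from 0 to 7 CpG dinucleotides, with a median of 7 over all promoters.

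In control MII oocytes the 9 genes together made up 0.293% of all TPM, led by Nlrp4a and Nlrp4f. Nlrp4a measured 685 and 775 TPM, above all but 0.807% of genes. Nlrp4f measured 655 and 780 TPM, which overlapped the range of Nlrp4a. Nlrp14 (518 and 327 TPM) and Nlrp4b (413 and 436 TPM) came next and overlapped each other. Nlrp9a (264 and 269 TPM) lay above Nlrp9c (245 and 212 TPM), and Nlrp9b (70.3 and 67.2 TPM) lay above Nlrp4e (61.3 and 61.9 TPM). Nlrp4c was the lowest member in every uninjected group, at 11.7 and 12.2 TPM.

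Which genes led the family changed between MII and E2C in control embryos. Nlrp9c rose 3.31-fold, Nlrp9b 3.17-fold, Nlrp4e 3.08-fold, Nlrp9a 1.62-fold and Nlrp4f 1.20-fold, while Nlrp4b fell to 0.318 and Nlrp4a to 0.709 of its MII mean. The tests were made with limma on log2(TPM + 1) across all 12 uninjected libraries, and a gene was called at a Benjamini-Hochberg adjusted p under 0.05. That gave 5 of 9 genes higher, where 35.1% of the 14316 genes tested were called higher, and 2 of 9 lower, where 37.0% were called lower. Both shares of all genes are large, and the members' counts are to be read against them.

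Nlrp9c went from 245 and 212 TPM in MII oocytes to 716 and 797 TPM at E2C, a log2 fold change of 1.73 ± 0.16 (SE, 2 libraries per group, limma adjusted p = 1.92e-06). Nlrp9b went from 70.3 and 67.2 TPM to 212 and 223 TPM (1.65 ± 0.15, limma adjusted p = 1.89e-06). Nlrp9a went from 264 and 269 TPM to 400.2 and 464 TPM (0.69 ± 0.20, limma adjusted p = 0.00882), and its call was lost without the second control E2C library (adjusted p = 0.0662). For each Nlrp9 gene the groups did not overlap. In all, 5 of the 9 genes had both E2C libraries above both MII libraries, as did 42.8% of all genes tested. Of the pair that shares the 106-base run upstream of its starts, Nlrp9c was the lower in MII oocytes and the higher at E2C. The difference between their changes was not tested.

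Among the Nlrp4 genes the directions were mixed. Nlrp4e measured 61.3 and 61.9 TPM in MII oocytes and 196 and 184 TPM at E2C, with no overlap (1.61 ± 0.12, limma adjusted p = 3.2e-07). Nlrp4b measured 413 and 436 TPM in MII oocytes and 132 and 138 TPM at E2C, again with no overlap, and fell by 1.65 ± 0.16 on the log2 scale (limma adjusted p = 3.02e-06). These were the members of the Nlrp4 group that moved most, in opposite directions. Nlrp4a fell from 685 and 775 TPM to 516 and 519 TPM (limma adjusted p = 0.0130), a call that ended when the libraries were rescaled by median-of-ratios size factors (adjusted p = 0.451), without the first control E2C library (0.0540) or without the second control MII library (0.0853). Nlrp4f stood at 655 and 780 TPM and then at 852 and 876 TPM (0.27 ± 0.11, limma adjusted p = 0.0375), a call lost without either control E2C library or without the first control MII library (adjusted p up to 0.301). Nlrp4c and Nlrp14 overlapped between the stages, with Nlrp14 at 479 and 379 TPM at E2C. Rescaling moved the median gene by 0.16 on the log2 scale, from 0.03 to 0.19. Called members moved further, Nlrp4a from -0.49 to -0.15, Nlrp4b from -1.65 to -1.30 and Nlrp4f from 0.27 to 0.62. The sizes of these stage changes thus depend on the scaling, but no called member changed direction. Nlrp4c, at a log2 fold change of -0.05, turned positive.

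The ratio of Nlrp9 to Nlrp4 transcripts was higher at E2C than in MII oocytes, and higher again at L2C, in control libraries. The summed TPM of the 3 Nlrp9 genes divided by that of the 5 Nlrp4 genes was 0.317 and 0.265 in control MII oocytes, 0.778 and 0.859 at E2C and 1.507 and 1.497 at L2C. No library of one stage overlapped the next. In wild-type 4C embryos given mCherry, where the levels were low, it was 0.442 and 0.587. A sum over relatives is less exposed than a single gene to reads swapped between the copies summed. It is not protected from copies outside it, such as Gm16443 for Nlrp4e and Nlrp4g for Nlrp4f. Other stored oocyte mRNAs differed in direction: 6 of 7 genes of the subcortical maternal complex were called lower at E2C than in MII oocytes and 1, Ooep, was called higher, and of 15 oocyte markers 9 were called lower and 3 higher. Gdf9, a growth factor secreted by the oocyte, was at 14247 TPM in MII oocytes and at 216 TPM at E2C. The median log2 fold change was 0.27 over the 9 genes, -1.95 over the subcortical maternal complex, -0.46 over the oocyte markers and 0.03 over all genes tested.

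**Figure D1:**
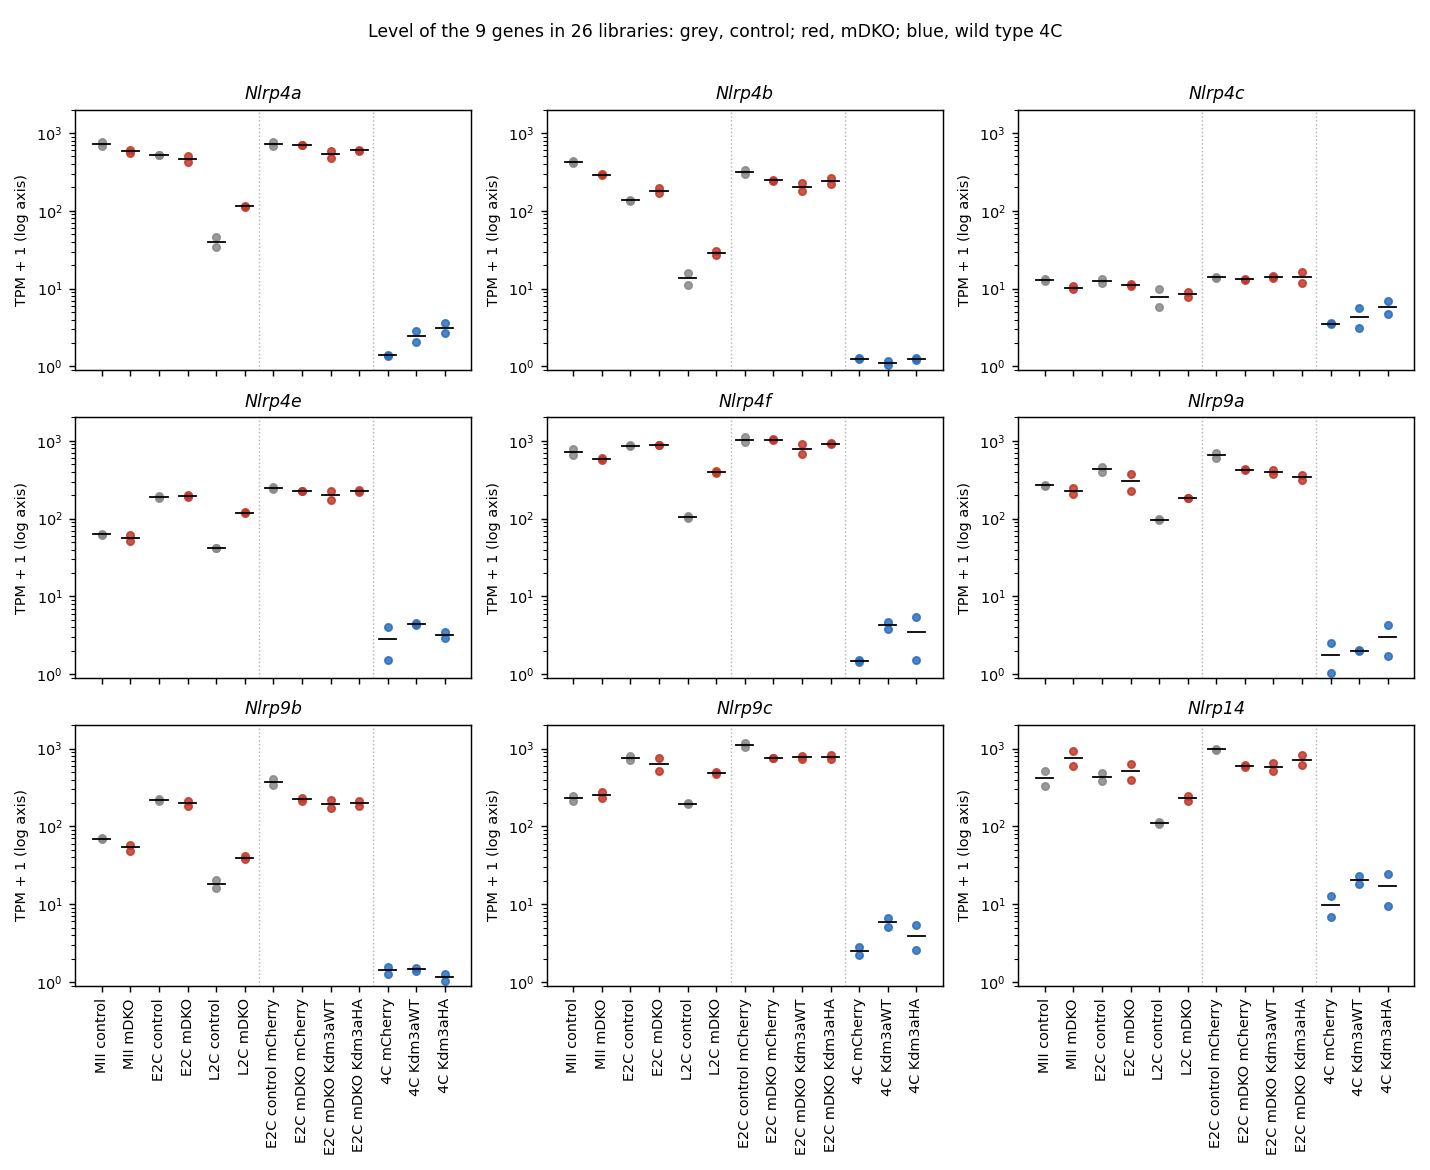
TPM + 1 of each of the 9 genes on a log axis in the 13 groups, with 1 point per library and a line at the mean of 2. Grey is control, red mDKO and blue wild-type 4C, and dotted lines separate the 3 deposited tables. The L2C control points lie below the L2C mDKO points in every panel except that of Nlrp4c.

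**Figure D2:**
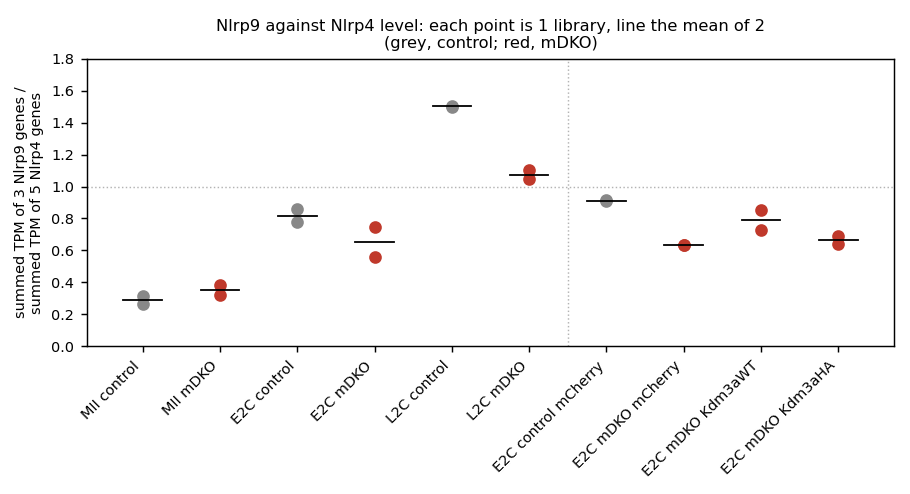
Ratio of the summed TPM of the 3 Nlrp9 genes to that of the 5 Nlrp4 genes in each library of MII, E2C and L2C groups, with a line at the mean of 2. Control libraries (grey) climb from 0.265 in an MII library to 1.507 in an L2C library, and the L2C mDKO libraries (red) lie at 1.10 and 1.05.

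From E2C to L2C all 9 genes fell in control embryos, where 30.1% of all genes tested were called lower. Nlrp4a went from 516 and 519 TPM to 32.9 and 45.3 TPM, 13.2-fold lower (limma adjusted p = 9.67e-09). Nlrp9b went from 212 and 223 TPM to 15.4 and 19.4 TPM, 12.5-fold lower, and Nlrp4b from 132 and 138 TPM to 14.9 and 10.3 TPM, 10.7-fold lower. Nlrp4f, the most abundant member at E2C, was 8.28-fold lower at 107 and 102 TPM. In none of the 9 genes did the stages overlap, where 39.4% of all genes tested had both L2C libraries below both E2C libraries.

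The remaining members fell less. Nlrp4e was 4.61-fold lower, Nlrp9a 4.53-fold, Nlrp14 3.91-fold and Nlrp9c 3.90-fold. Nlrp9c, at 191 and 197 TPM, was then the most abundant of the 9. Nlrp4c was 1.68-fold lower at 4.73 and 8.93 TPM (limma adjusted p = 0.0192), and its call was lost without the first control library of either stage (adjusted p up to 0.198). The subcortical maternal complex fell too, in 7 of 7 genes, and of the oocyte markers 12 of 15 fell. A fall in TPM is a fall in the share of all mRNA.

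In MII oocytes few differences of the members between mDKO and control passed the adjusted threshold. An unadjusted limma p under 0.05 was found for 5 of 9, and for 2657 of the 10765 genes tested. Nlrp4b was the only one of 9 genes called, at 413 and 436 TPM in control and 292 and 286 TPM in mDKO oocytes, a fall of 0.55 ± 0.07 on the log2 scale (limma adjusted p = 0.0229). The share of all genes called lower was 3.41%. The groups did not overlap, but the call was kept in 4 of 9 alternatives and was lost without either mDKO library or without the second control library (adjusted p up to 0.122). In 7 of the genes both mDKO libraries lay below both controls: the 5 Nlrp4 genes, Nlrp9a and Nlrp9b. Their log2 fold changes lay between -0.55 and -0.16, and the median over all genes tested was -0.05. Of all genes tested, 34.4% had both mDKO libraries below both controls.

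Nlrp14 stood on the other side. It measured 518 and 327 TPM in control and 927 and 598 TPM in mDKO MII oocytes. Both mDKO libraries lay above both controls, with a log2 fold change of 0.85 ± 0.28 that was not called (limma adjusted p = 0.15). It was called higher in 1 of 9 alternatives, with the replicate number as a block (limma adjusted p = 0.000312). Replicate numbers alone do not establish a pairing, so neither fit can be preferred here. The first library was the higher of its pair in both groups. Nlrp5 varied likewise, at a mean of 517 TPM in control and 1223 TPM in mDKO oocytes, and was not called either (limma adjusted p = 0.0984). Nlrp9c overlapped between the groups.

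At E2C without injection none of the 9 genes was called by limma, where 14.4% of genes tested were called in either direction. At an unadjusted p under 0.05 there were 2 of 9, Nlrp4b and Nlrp9a, a share no higher than the 29.4% of all genes tested. Nlrp4b measured 132 and 138 TPM in control and 168 and 195 TPM in mDKO embryos, with no overlap (0.42 ± 0.14, limma adjusted p = 0.0847). That is the opposite side from its MII value. Nlrp9a measured 400.2 and 464 TPM in control and 223 and 375 TPM in mDKO embryos, again with no overlap (-0.57 ± 0.22, limma adjusted p = 0.123). The libraries of the mDKO group disagreed with each other for Nlrp9a, Nlrp9c (521 and 747 TPM) and Nlrp14 (397 and 634 TPM), the first being the lower each time. Without the first of them 2 genes were called, and without the second likewise 2, and the log2 fold change of Nlrp14 then ran from 0.57 to -0.10. Nlrp4e and Nlrp4f had log2 fold changes of 0.02 each, with standard errors of 0.13 and 0.11. For comparison, 7 of 7 measured early 2-cell activation genes, such as the Zscan4 cluster, were called lower in the same embryos.

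At L2C the picture was different, and 8 of the 9 genes were higher in mDKO embryos than in control. The rise was 1.93-fold to 3.76-fold, and 19.1% of genes tested were called higher. All 8 calls held in each of the 9 alternatives tried, leave-one-out fits included. The median log2 fold change over the 9 genes was 1.12, and over all genes tested it was -0.000659. Only Nlrp4c was not called.

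Nlrp4f showed the largest difference of the 9, at 107 and 102 TPM in control and 381 and 405 TPM in mDKO embryos (1.902 ± 0.11, limma adjusted p = 0.000161). Nlrp4a was at 32.9 and 45.3 TPM against 115 and 111 TPM (1.53 ± 0.17, limma adjusted p = 0.000728). Nlrp4e was at 41.4 and 41.0 TPM against 122 and 116 TPM (1.503 ± 0.12, limma adjusted p = 0.000296). These 3 Nlrp4 genes were 2.88-fold to 3.76-fold higher, and no mDKO library came near a control library. Nlrp4b was lower in abundance, at 14.9 and 10.3 TPM against 26.4 and 29.4 TPM (1.11 ± 0.21, limma adjusted p = 0.00599). Nlrp4c, at 4.73 and 8.93 TPM against 7.96 and 6.93 TPM, overlapped (0.16 ± 0.30, limma adjusted p = 0.693).

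Of the Nlrp9 genes, Nlrp9c measured 191 and 197 TPM in control and 498 and 475 TPM in mDKO embryos (1.32 ± 0.10, limma adjusted p = 0.000256). Nlrp9a measured 96.6 and 94.1 TPM against 184 and 184 TPM (0.94 ± 0.11, limma adjusted p = 0.000866). Nlrp9b measured 15.4 and 19.4 TPM against 36.9 and 40.6 TPM (1.12 ± 0.17, limma adjusted p = 0.00256). Nlrp14 measured 112 and 107 TPM against 212 and 245 TPM (1.05 ± 0.12, limma adjusted p = 0.000829). All 4 separated the groups without overlap. With the 4 Nlrp4 genes that rose, 8 of 9 lay wholly above control, where 35.8% of all genes tested did. The 9 genes summed to 0.0620% of TPM in control and 0.160% in mDKO embryos. The Nlrp9 to Nlrp4 ratio was 1.507 and 1.497 in control and 1.10 and 1.05 in mDKO libraries.

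**Figure D3:**
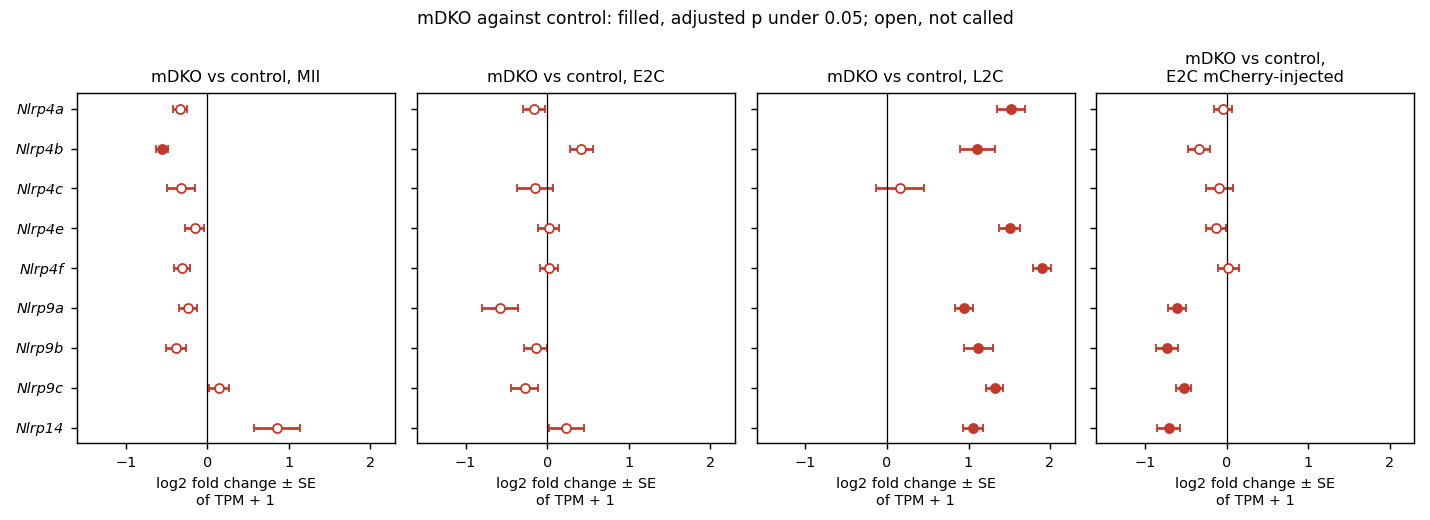
Log2 fold change ± SE of TPM + 1 between mDKO and control for each gene at MII, E2C, L2C and in mCherry-injected E2C embryos, with 2 libraries per group. Filled points passed an adjusted p of 0.05. At L2C 8 points are filled and lie between 0.94 and 1.902, whereas at E2C without injection none is filled.

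The same values can be given as the L2C mean in percent of the E2C mean. Such a percentage does not tell stored from newly made mRNA. For Nlrp4f the mean L2C level was 12.1% of the E2C mean in control and 44.7% in mDKO embryos. For Nlrp9c it was 25.6% and 76.8%, for Nlrp9a 22.1% and 61.5%, for Nlrp4e 21.7% and 61.5%, and for Nlrp4a 7.55% and 24.3%. The values were 7.99% and 19.6% for Nlrp9b, 25.5% and 44.3% for Nlrp14 and 9.33% and 15.4% for Nlrp4b. Each mDKO mean at L2C was thus also below its E2C mean, a difference that was not tested within mDKO embryos. How far the mDKO effect at L2C departed from that at E2C was tested as an interaction over the 12 libraries. It was called higher for 7 of 9 genes, against 13.2% of genes tested. It ranged from 0.69 ± 0.23 for Nlrp4b (limma adjusted p = 0.0490, called in 2 of 12 alternatives) to 1.88 ± 0.15 for Nlrp4f (limma adjusted p = 3.45e-05). Nlrp14 did not pass (0.81 ± 0.39, limma adjusted p = 0.15), nor did Nlrp4c (0.31 ± 0.34, limma adjusted p = 0.543).

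Higher levels at L2C were not particular to these genes. Of the subcortical maternal complex 6 of 7 were called higher in L2C mDKO embryos, with a median log2 fold change of 0.83, and of 15 oocyte markers 11 were called higher and 1, Zp3, lower, with a median of 1.27. Examples are Btg4, an adaptor for mRNA deadenylation, at 1694 TPM in control and 6185 TPM in mDKO embryos, and Bcl2l10 at 633 TPM and 2849 TPM. Of 7 measured early 2-cell activation genes 6 were also higher. Some listed markers of other cells also differed in the same libraries. The summed TPM of 14 cumulus and granulosa markers was 58.9 and 66.9 in control and 110.0 and 115 in mDKO libraries. Most of the mDKO sums was Serpine2, at 77.7 and 74.8 TPM against 23.4 and 31.4 TPM in control. Serpine2 was also at a mean of 851 TPM in control MII oocytes. Serpine2 and Inhba were called higher, and Foxl2 and Amh were under 1 TPM in both groups. Of the 6 tested, 3 had a positive and 3 a negative log2 fold change. The 8 blood and myeloid markers summed to 193 and 320 TPM in control and 44.3 and 253 TPM in mDKO libraries. Among them Hba-a1, a haemoglobin gene, was called lower in mDKO embryos (28.9 and 28.9 TPM against 183 and 312 TPM). In control Hba-a1 went from a mean of 0 TPM in MII oocytes to 14.0 TPM at E2C and 247 TPM at L2C. Another haemoglobin gene, Hbb-bs, read 0 TPM in all L2C libraries. The macrophage gene Cd68 was called higher in mDKO embryos (8.37 and 19.3 TPM against 5.64 and 2.99 TPM). Lyz2 was at 6.25 and 205 TPM in mDKO and at 4.53 and 4.02 TPM in control libraries and was not called. The part of either in the result was not tested.

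**Figure D4:**
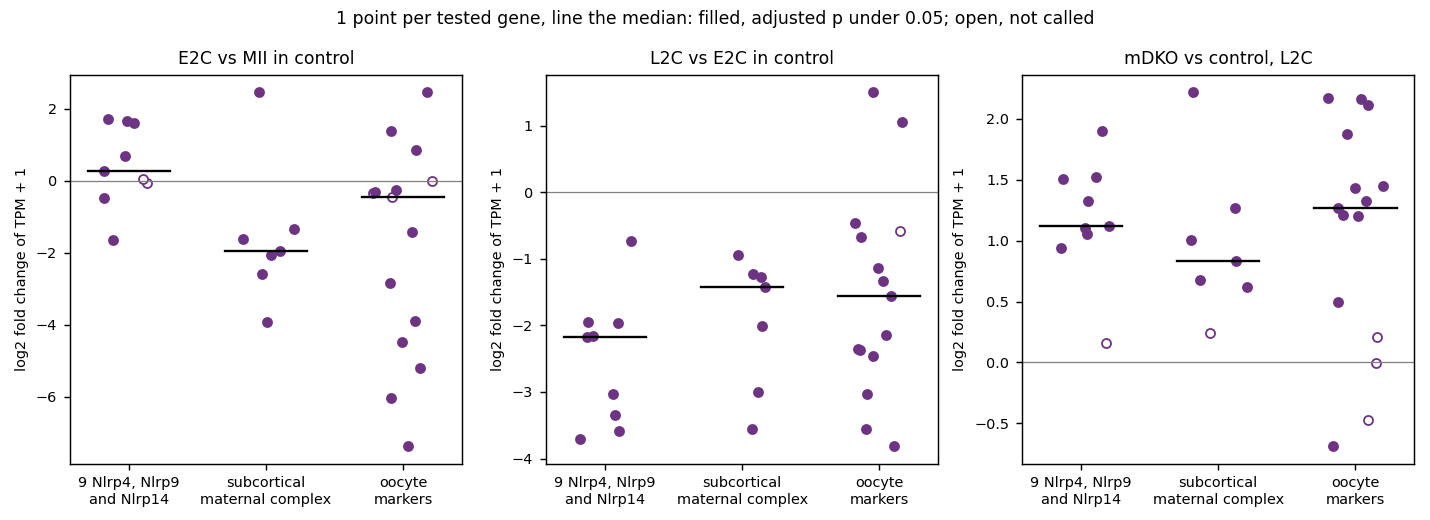
Log2 fold change of TPM + 1 for each tested gene of 3 lists, with a line at the median and filled points for an adjusted p under 0.05. From MII to E2C in control the medians are 0.27 for the 9 genes, -1.95 for the subcortical maternal complex and -0.46 for the oocyte markers. From E2C to L2C they are -2.18, -1.42 and -1.56, and for mDKO against control at L2C 1.12, 0.83 and 1.27.

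In injected E2C embryos the 3 Nlrp9 genes and Nlrp14 were lower in mDKO than in control when both had received mCherry. The falls were to 0.597 to 0.691 of the control mean. Limma, fitted over the 8 injected libraries, called 4 of 9 genes lower, where 20.0% of genes tested were called lower. All 4 calls held in each of the 9 alternatives. None of the Nlrp4 genes was called. Both mDKO libraries lay below both controls in 7 of 9 genes, and in 36.5% of all genes tested.

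Nlrp14 was at 955 and 997 TPM in control and 575 and 614 TPM in mDKO embryos (-0.71 ± 0.14, limma adjusted p = 0.00384). Nlrp9b was at 340 and 405 TPM against 214 and 231 TPM (-0.74 ± 0.14, limma adjusted p = 0.00267). The separation was as complete for Nlrp9a, at 607 and 687 TPM against 417 and 427 TPM (-0.61 ± 0.11, limma adjusted p = 0.00178). Nlrp9c was at 1037 and 1171 TPM against 760 and 767 TPM (-0.53 ± 0.09, limma adjusted p = 0.00163). Nlrp4b was at 298 and 331 TPM against 244 and 249 TPM, without overlap but not called (-0.35 ± 0.13, limma adjusted p = 0.0620). It was called lower in 3 of 9 alternatives, namely size-factor scaling, the replicate block and the 4 libraries alone (adjusted p from 0.00941 to 0.248 over all 9). Nlrp4a and Nlrp4f overlapped, with log2 fold changes of -0.05 ± 0.11 and 0.02 ± 0.13, the latter turning negative on rescaling. The Nlrp9 to Nlrp4 ratio was 0.907 and 0.918 in control and 0.634 and 0.633 in mDKO libraries.

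Set beside the uninjected E2C values, the 3 Nlrp9 genes had negative log2 fold changes in both tables. Without injection, where none of them was called, these were -0.57 for Nlrp9a, -0.14 for Nlrp9b and -0.28 for Nlrp9c. Nlrp14 had opposite signs, 0.24 without injection and -0.71 with mCherry. In control embryos Nlrp14 was at 479 and 379 TPM without injection and at 955 and 997 TPM with mCherry, whereas the mDKO libraries lay between 397 and 634 TPM in both tables. The tables were deposited separately, and the difference between them was not tested. Stored oocyte mRNAs mostly went the other way in the injected embryos. Of the subcortical maternal complex 5 of 7 genes were called higher in mDKO, and of the oocyte markers 8 of 14 tested. Among all 10960 genes tested, 2946 were called higher. The log2 fold change was negative in 2 of the 7 and 4 of the 14, among them Ooep, which is in both lists. The cumulus and granulosa markers summed to 85.6 and 77.9 TPM in control and 359 and 349 TPM in mDKO libraries. Of these sums Serpine2 made up 62.2 and 51.2 TPM in control and 312 and 307 TPM in mDKO libraries. Called higher were 4 of 14 (Inha, Inhba, Tnfaip6 and Serpine2), and Foxl2, Amh and Ptx3 were at 0 in the mDKO libraries. The 8 blood and myeloid markers summed to 10.5 and 8.07 TPM and to 64.9 and 42.6 TPM. Only 3 of them were tested. Cd68 (mean 28.6 against 3.45 TPM) and Lyz2 (24.3 against 1.24 TPM) were called higher in mDKO, and Hba-a1 (0.409 against 4.53 TPM) lower. The part of either list of markers in the result was not tested.

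Injection of Kdm3a into mDKO embryos moved the 9 genes little relative to mCherry. After Kdm3aWT limma called 1 gene, Nlrp4a, lower, where 10.8% of genes tested were called lower. It went from 696 and 707 TPM to 479 and 593 TPM (-0.40 ± 0.11, limma adjusted p = 0.0466). The call was kept in 2 of 9 alternatives and lost when the libraries were rescaled (adjusted p up to 0.285), and 3 of its 4 leave-one-out fits ended it: without the first Kdm3aWT library or without either mCherry library. Without the second Kdm3aWT library 4 genes were called. The median gene of this comparison stood at -0.19 and rescaling moved it by 0.19. Of the called genes 8.07% were higher before rescaling and 35.2% after, and 6 of the 9 members then had a positive log2 fold change.

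The 4 genes that were lower in mDKO embryos stayed near their mCherry level after Kdm3aWT. Nlrp14 was at 521 and 652 TPM, Nlrp9a at 378 and 420 TPM, Nlrp9b at 173 and 216 TPM and Nlrp9c at 744 and 798 TPM. Their log2 fold changes against mDKO mCherry were -0.03 ± 0.14, -0.08 ± 0.11, -0.20 ± 0.14 and 0.01 ± 0.09, and in each the groups overlapped. In each the Kdm3aWT libraries also lay below the control mCherry libraries. That comparison was not tested.

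After Kdm3aHA none of the 9 was called by limma, where 10.8% of genes were called in either direction, and 1 had an unadjusted p under 0.05, as did 26.3% of all genes tested. That was Nlrp9a, at 310.0 and 365 TPM (-0.33 ± 0.11, limma adjusted p = 0.0868). Nlrp14 was at 622 and 824 TPM, above both mCherry libraries (0.27 ± 0.14, limma adjusted p = 0.278). Kdm3aWT against Kdm3aHA gave no call by limma, where 3.29% of genes were called, and 1 unadjusted p under 0.05, where 23.1% of all genes had one. It was again that of Nlrp9a (0.24 ± 0.11, limma adjusted p = 0.213). Without the second Kdm3aWT library 2 genes were called. For scale, 5 of 7 measured early 2-cell activation genes were called higher after Kdm3aWT than after Kdm3aHA. These tests do not show that the constructs act alike on the 9 genes. In the comparison with Kdm3aHA the share of called genes that were higher went from 14.2% to 30.2% on rescaling, and between the constructs from 40.2% to 57.7%. After rescaling 5 of the 9 members had a positive log2 fold change in the former and 4 in the latter.

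By the 4-cell stage little of these mRNAs was measured. Over the 6 wild-type libraries Nlrp14 was the most abundant, with a lowest value of 5.77, a median of 14.5 and a highest of 23.4 TPM. Nlrp4c followed with 2.09, 3.19 and 6.00 TPM. Nlrp4b (0.0474 to 0.288 TPM) and Nlrp9b (0.0359 to 0.551 TPM) were under 1 TPM in every library and were not tested. Nlrp9c ranged from 1.23 to 5.67 TPM, and the remaining members from 0.0531 to 4.42 TPM. Limma called none of the 7 tested genes after Kdm3aWT or Kdm3aHA, and 0% of the 9669 genes tested were called in either comparison. Unadjusted p-values under 0.05 were found for 776 of all genes (8.03%) after Kdm3aWT, Nlrp4f and Nlrp9c among them, and for 264 (2.73%) after Kdm3aHA, among them Nlrp4a.

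Nlrp4f was at 0.539 and 0.425 TPM after mCherry and at 2.85 and 3.72 TPM after Kdm3aWT (1.52 ± 0.57, limma adjusted p = 0.574). Nlrp4a was at 0.354 and 0.419 TPM after mCherry and at 1.67 and 2.61 TPM after Kdm3aHA (1.16 ± 0.44, limma adjusted p = 0.843). After Kdm3aWT 5 of the 9 genes lay above both mCherry libraries, as did 39.6% of all genes tested. All 7 log2 fold changes were positive in both comparisons, and on rescaling 6 stayed positive with Kdm3aWT and 7 with Kdm3aHA. The median gene also stood at 0.44 and 0.35, and rescaling moved it by -0.43 and -0.34. At such low TPM the fold change on the log2(TPM + 1) scale understates ratios.

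The wider family held a few abundant genes and many near 0. Of 20 other NLR genes present in the tables, 5 were tested in MII oocytes and 9 at L2C. Nlrp4g, which GENCODE annotates as a transcribed pseudogene, was at a mean of 286 TPM in control MII oocytes, 301 TPM at E2C and 34.0 TPM in L2C control embryos, against 95.6 TPM in L2C mDKO embryos (limma adjusted p = 0.000346). Nlrp4f and Nlrp4g share transcript words, so part of one level may belong to the other. Nlrp5 and Nlrp2 of the subcortical maternal complex were called higher at L2C in mDKO embryos as well (log2 fold changes 0.62 and 0.68). In contrast Nlrp3 and Nlrp12, sensors of immune cells, were called lower at L2C in mDKO embryos, at a mean of 3.96 TPM in control and 0.882 TPM in mDKO for Nlrp3 (limma adjusted p = 0.0104) and 3.21 and 0.851 TPM for Nlrp12 (limma adjusted p = 0.0237). Naip1 was called lower in mDKO embryos at E2C, at 2.24 TPM against 5.40 TPM (limma adjusted p = 0.0343).

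Inflammasome partners were scarce in MII oocytes. Of 9 listed, 7 were under 1 TPM in both control MII libraries, among them the adaptor Pycard, the protease Casp1 and the pore-former Gsdmd. Casp1, listed at 0 there, was called higher at E2C in control embryos, at a mean of 3.62 TPM (limma adjusted p = 2.66e-05). Pycard was called higher in mDKO than in control embryos with mCherry (1.20 against 0.116 TPM, limma adjusted p = 0.00360). It was called lower than that mDKO level after Kdm3aWT and after Kdm3aHA, at means of 0 and 0.0790 TPM. Of the 3 tested blood and myeloid markers, Lyz2 and Cd68 took the same course and Hba-a1 did not. Lyz2 was at 24.3 against 1.24 TPM with mCherry, and at 0.157 TPM after Kdm3aWT and 0.354 TPM after Kdm3aHA. The relation of Pycard to these markers was not tested. Dhx9, the helicase partner of NLRP9B, was at 18.3 TPM in control MII oocytes, 2.89 TPM at E2C and 35.2 TPM at L2C, and was called lower in L2C mDKO embryos at 16.9 TPM (limma adjusted p = 0.00321). Nek7, a kinase that binds NLRP3, was called higher there, at 23.2 TPM against 9.75 TPM (limma adjusted p = 0.00235).

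Genes for reported protein partners did not follow one course. Uhrf1 fell from 613 TPM in control MII oocytes to 48.5 TPM at E2C and 9.34 TPM at L2C. It was higher in mDKO embryos at E2C (102 TPM, log2 fold change 1.02 ± 0.23, limma adjusted p = 0.0235) and at L2C (43.5 TPM, limma adjusted p = 0.000426), and was not called with mCherry injection. Kpna2 instead rose in control, from 144 TPM in MII oocytes to 859 TPM at E2C and 1613 TPM at L2C, and was lower in mDKO embryos at L2C (1003 TPM, limma adjusted p = 0.0251). With mCherry injection it was also lower in mDKO than in control embryos (634 against 1228 TPM, limma adjusted p = 5.69e-05). Against that mDKO level Kpna2 was called lower after Kdm3aWT (493 TPM) and higher after Kdm3aHA (990.5 TPM), and the constructs differed (limma adjusted p = 0.00930). Becn1, an autophagy regulator reported to bind NLRP4, was called higher in mDKO embryos at E2C without injection and with mCherry. Tbk1 was called in neither. Slc8b1 had a mean under 1 TPM in every MII, E2C and L2C group, with 0.764 and 1.11 TPM in L2C control libraries, and was not tested between uninjected groups. Its 4C means were 6.05 TPM after mCherry, 7.98 TPM after Kdm3aWT and 8.58 TPM after Kdm3aHA.

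Over the 13 group means of log2(TPM + 1), pairs of the 9 genes correlated at 0.910 (Nlrp4b and Nlrp4e) to 0.994 (Nlrp4e and Nlrp9c), with a median of 0.970. All pairs share the low 4C groups. By the same measure over 7597 candidate genes, the profiles most like the mean of the 9 were those of Taf9b (r = 0.999), Nlrp4g (0.998), Ttll11 (0.998), Nuf2 (0.997) and Hsf5 (0.996). Nlrp14 was most like Icosl (0.992), Me1 (0.991), Rab38 (0.991), Klhl13 (0.990) and Slc25a13 (0.990). Among the genes most like Nlrp4b were Trp63 (0.996), Epsti1 (0.994), Ap3m1 (0.993) and Tubal3 (0.993). All of these genes except Me1 were called higher in L2C mDKO embryos, where 19.1% of all genes tested were. The L2C groups were among the 13 used to choose these genes, so the calls are no separate evidence.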

How the data were processed

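Gene-level TPM values were used as deposited by the authors, 1 column per library, in 3 tables. SAMtools 1.9, RSEM 1.3.1, STAR 2.7.10b and Bowtie2 2.3.4.1 are the tools that the submitters' processing notes list, with the build mm10 and no step for each. Which annotation or strand setting was used is not stated. All 26 columns matched 1 sample by name. Tests used limma 3.58.1 in R 4.3.3 (trend, two-sided) on log2(TPM + 1) for genes that reached 1 TPM in 2 or more of the libraries fitted, adjusted over all genes tested, and were tested on simulated data. Without injection, mDKO was compared with control over 4 libraries per stage. Stage comparisons and the interaction used 12, injected E2C 8 and 4C 6. An exact permutation test of 2 against 2 libraries cannot go below 0.333. Whether pools came from separate females or days is not given, so p-values may measure technical spread only. The 9 genes, the other lists and the rule for most alike genes were chosen with earlier results of these data known. All 9 genes and every gene of a partner list were eligible to be named, and of the other lists those called or used as examples. Of the genes most alike, 1 is not reported here. Mean TPM gives the fold values. Transcripts came from GENCODE M21, promoters from RefSeq on GRCm38.p6, and identities from MAFFT 7.526. Alternatives were a pseudocount of 0.1, no filter, size-factor scaling, the replicate number as a block, other sets of libraries in the fit, each library left out, and sums over Nlrp4 or Nlrp9 genes.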

Additional observations from a re-analysis of the deposited data

Results flagged for a closer look

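The mDKO effect on 7 genes differed between L2C and E2C by the interaction test in limma, with a larger effect at L2C. On the log2 scale the difference was 1.88 for Nlrp4f, 1.69 for Nlrp4a, 1.60 for Nlrp9c, 1.51 for Nlrp9a, 1.48 for Nlrp4e, 1.26 for Nlrp9b and 0.69 for Nlrp4b. The adjusted p stayed under 0.05 in all 12 alternatives for each of these except Nlrp4b, whose adjusted p ran from 0.00943 to 0.179. No group was large enough for a test of single libraries.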

How the results depend on the processing

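Over the genes called in any fit, 426 alternative values stayed on the same side of the threshold, 21 passed it newly, 31 no longer passed and 4 changed sign. The counts at L2C, in the interaction, in both stage comparisons, in mDKO against control with mCherry and at 4C, each over both directions together, stayed within 1.5 times. By direction, E2C against MII had 5 higher and 2 lower, which became 5 and 1 with size-factor scaling, 4 and 1 without the first control E2C library, 3 and 2 without the second, and 5 and 1 without the second control MII library. In MII oocytes the count of 1 became 0 with no filter, 5 with the replicate block, 0 with all 12 libraries and 0 to 1 with a library left out. The same-numbered MII libraries deviated together (r = 0.359), but 2 numbers do not establish a pairing. At E2C without injection the count of 0 became 2 with the replicate block and 0 to 2 with a library left out. For Kdm3aWT against mCherry the count of 1 became 0 with a pseudocount of 0.1, with no filter, with size-factor scaling and with the 4 libraries alone, 2 with the replicate block and 0 to 4 with a library left out. For Kdm3aHA against mCherry it went from 0 to 1 with the replicate block and with the 4 libraries alone, and for Kdm3aWT against Kdm3aHA leave-one-out counts ran from 0 to 2. Nlrp14 at E2C ranged from -0.10 to 0.57 (log2) with a library left out. Nlrp4e after Kdm3aWT turned to 0.0581 against mCherry with scaling, and ranged from -0.356 to 0.0216 against mCherry and from -0.363 to 0.0143 against Kdm3aHA with a library left out. The cause was not tested. Where 1 library is left out, the lone library is assumed to vary like the others. Depth is unknown, so no counting error can be given.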
